A study of Mus musculus with 14 samples.

Results

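The 10 genes described here, Adamts2, Tubgcp3, Myo16, Rbms3, Cyp4f39, Rgcc, Alkbh3, Syt11, Zmynd8 and Muc13, carried some of the strongest p53 regions in mouse embryonic stem cells. They were chosen from 21900 protein-coding genes and selected on a very high p53 pileup, the number of sequenced fragments stacked at a region's summit, inside the gene or within 5000 bp of it. Their p53 values are therefore given as a description. Chromatin immunoprecipitation with sequencing (ChIP-seq) had been carried out in E14 cells, a mouse embryonic stem cell line, grown in 2i and LIF medium. The histone marks H3K27ac and H3K9me3 were each profiled after 1 µM doxorubicin, an anticancer drug that traps topoisomerase and breaks DNA, and after the DMSO vehicle. Cells received drug or vehicle for 6 h, then drug-free medium for another 6 h, and were harvested 12 h after the start. Cells whose p53 carries an HA tag were profiled with an antibody to HA, untagged cells served as the background of that antibody, and unprecipitated input came from cells given doxorubicin. The labels do not give the treatment of either HA group, nor how the tag was put into the cells.

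Each of the 7 groups had 2 libraries, and the authors called 1 list of regions per group on the pooled pair. The titles give the pair of p53 libraries an identical replicate number, so it is not known whether they came from separate cultures. No spread between replicates can be had from these lists, so no difference below has a replicate check and no test was run. The 95% Wilson intervals cover counting error only. Fragments behind the lists numbered 45238471 for p53, 49588950 for untagged HA and 16583331 for input. The histone lists rested on 14402634 to 20647895 fragments. All 8 embryonic stem cell marker genes examined, Pou5f1 and Nanog among them, had H3K27ac within 1000 bp of a gene end in both treatments. Of 4 fibroblast marker genes, 3 had it after doxorubicin and 2 after vehicle, and their part in the results was not tested.

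The transcription factor p53 is stabilised after DNA damage and binds DNA at a pair of short half-sites whose core is CATG. It switches on genes for cell cycle arrest, apoptosis, repair and its own degradation, often from promoters or from sites inside or upstream of the gene. H3K27ac marks active promoters and enhancers, and H3K9me3 marks heterochromatin.

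The strongest p53 region of each gene lay away from its start. No p53 region overlapped any of the 16 RefSeq start-site windows of the 10 genes (250 bases before to 50 after a start), against 0.53% of all 32851 such windows. Untagged and input regions overlapped none of the 16 either, against 0.578% and 0.183%. H3K27ac was listed at 8 of the 16 windows after doxorubicin, against 32.9% of all, and at 9 after vehicle, against 32%, with 5 of them in each treatment belonging to Zmynd8, which has 5 start sites. The sequences below are RefSeq sequences of GRCm38.p6, read on the gene's minus strand. Alkbh3 is shown because the 156 bases before its annotated 5′ end (chr2:94010825-94010980) carried H3K27ac in both treatments beside an upstream p53 region. Rgcc is shown because its start (chr14:79301636-79301885) was inside H3K9me3 in both treatments. Zmynd8 is shown because the 30 bases at chr2:165879485-165879514, just past a start, held the only match to the p53 half-site consensus among the 16 windows. Capitals mark CATG in Alkbh3 and the 10 letters of the half-site in Zmynd8.
Alkbh3: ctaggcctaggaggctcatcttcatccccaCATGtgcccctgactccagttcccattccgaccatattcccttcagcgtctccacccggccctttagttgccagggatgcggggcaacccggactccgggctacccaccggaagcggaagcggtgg
Rgcc: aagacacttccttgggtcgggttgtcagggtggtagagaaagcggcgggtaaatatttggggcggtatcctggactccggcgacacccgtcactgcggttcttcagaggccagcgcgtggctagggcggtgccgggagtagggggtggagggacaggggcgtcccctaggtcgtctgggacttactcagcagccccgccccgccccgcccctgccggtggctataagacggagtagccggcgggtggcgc
Zmynd8: agattgagagGAGCATGCTTggtttggttt

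The Rgcc stretch held 22 CG pairs at 66.8% G and C and no CATG. The Alkbh3 stretch held 9 CG pairs at 62.8% G and C. CATG and the half-site consensus read the same on both strands, and the consensus match in Zmynd8 contains CATG. The consensus was found in 1 of the 16 start-site windows, against 8.36% of all, and CATG in 7 of the 16, against 61.1%. The Zmynd8 match had no p53 region over it. The bases under the p53 regions themselves were not used here.

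Adamts2, which encodes the protease that trims the amino end of procollagen, had the highest p53 pileup of the 10, at 5554.36 fragments on the depth of the input. Its region, on chromosome 11 from 50777620 to 50779966, had 2 summits and a fold enrichment over background of 926, the highest of all 11282 p53 regions. The summit lay within the gene, 176896 bp from the start and 28592 bp from the 3′ end. Tubgcp3 encodes a subunit of the gamma-tubulin complex that nucleates microtubules. Its region, on chromosome 8 from 12634305 to 12635552, had a pileup of 4531.61 and a fold enrichment of 378, and lay within the gene 37090 bp from the start. Myo16, which encodes an unconventional myosin, had a region on chromosome 8 from 10185071 to 10186205 with a pileup of 4270.61 and a fold enrichment of 178. That summit lay 31594 bp into a gene of 480832 bp, and its local background of 23 fragments was the highest of the 10 genes. Exons and introns were not told apart for any of these sites.

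Rbms3 encodes an RNA-binding protein and, at 1057168 bp, was the longest of the 10 genes. Its strongest region, on chromosome 9 from 117158542 to 117160008, had a pileup of 2604.89 and a fold enrichment of 458, and lay 93287 bp from the nearest start site. Cyp4f39, a cytochrome P450 gene, had a region on chromosome 17 from 32456553 to 32457930 with a pileup of 2515.44 and a fold enrichment of 359. This was the summit nearest to a start among those inside a gene, at 4548 bp. Zmynd8 encodes a reader of modified histones that takes part in the response to DNA breaks. Its region, on chromosome 2 from 165788387 to 165789615, had a pileup of 989.02 and a fold enrichment of 124, and lay 4902 bp from the 3′ end of the gene.

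At 3 of the genes the summit lay upstream of the gene, and the distances were alike. Rgcc, which encodes a regulator of the cell cycle, had its summit 3624 bp upstream, in a region on chromosome 14 from 79304841 to 79305796 with a pileup of 1735.37 and a fold enrichment of 248. Muc13, which encodes a membrane-bound mucin of epithelia, had its summit 3097 bp upstream, in a region on chromosome 16 from 33790419 to 33791620 with a pileup of 1251.49 and a fold enrichment of 104. The Muc13 summit also lay inside Gm15658, a long non-coding RNA gene. Alkbh3 encodes an enzyme that repairs alkylated bases. Its region, on chromosome 2 from 94013237 to 94014221, had the lowest pileup of the 10 at 855.59, with a fold enrichment of 151, and its summit lay 3034 bp from the start site. Syt11, which encodes a synaptotagmin of vesicle traffic, was the 1 gene with a summit downstream, 456 bp past its 3′ end. That region, on chromosome 3 from 88743760 to 88744760, had a pileup of 925.24 and a fold enrichment of 148. In all, 6 summits lay within the gene, 3 upstream and 1 downstream.

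**Figure D1:**
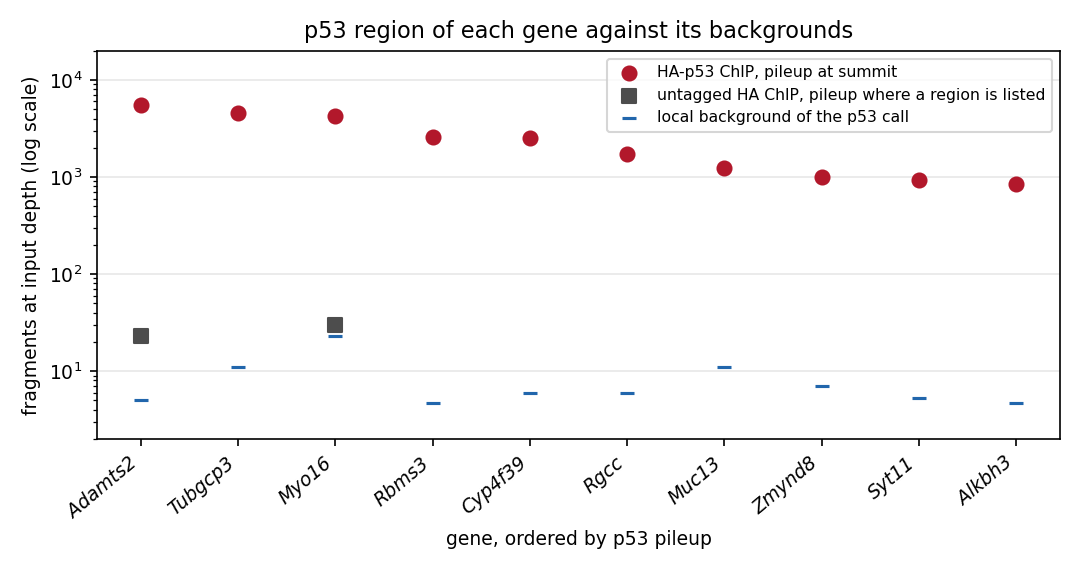
Fragments at the depth of the input (log axis) for each gene: p53 pileup at the summit (circles), untagged HA pileup where a region was listed (squares) and the local background of the p53 call (dashes). The p53 pileups run from 855.59 to 5554.36, above local backgrounds of 4.69 to 23 fragments, and untagged regions are listed at Adamts2 and Myo16 alone.

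Across the 10 genes the p53 pileup had a median of 2125 and the fold enrichment a median of 213, against 51.3 and 7.52 over all p53 regions. The regions were also longer, with a median of 1216 bp against 429 bp. Pileup and fold did not rank the genes alike. Adamts2 ranked 16th of all p53 regions by pileup and 1st by fold, whereas Muc13 ranked 67th and 163rd. Over all p53 regions, 139 had a pileup at or above that of Alkbh3. Of these, 28 had a fold enrichment under 10, and the highest pileup of all, 23740.19, came with a fold of 1.23. The remaining 111 are the 10 described here and 101 further regions, called the other strong p53 regions below. The limit of 10 was set after the values were seen. Just above Alkbh3 in pileup stood regions near Epb41l5 at 881.98 and Fto at 862.19, and just below it Ppp2r2c at 841.66 and Myzap at 840.19. The 10 genes are thus not all the genes near regions this strong, since 60 of the 111 regions had a protein-coding gene within 5000 bp.

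The untagged HA ChIP had a region at 2 of the 10 sites, against 7.92% of the other strong p53 regions and 3.7% of all p53 regions. At Adamts2 the p53 pileup was 5554.36 fragments, against an untagged pileup of 22.74, with the summits 17 bp apart. At Myo16 the p53 pileup was 4270.61 fragments, against an untagged pileup of 30.1, with the summits 1 bp apart. Both untagged regions were short, at 269 and 301 bp, against p53 regions of 2347 and 1135 bp. Neither was long enough to cover a 0.5 share of its p53 region, and both held the p53 summit. Both HA lists were scaled to the depth of the input but were called with different backgrounds, local for p53 and genome-wide for untagged HA. The input list had no region in any of the 10 genes or the 10000 bp around them, and so overlapped 0 of the 10 sites, against 6.93% of the other strong and 1.76% of all p53 regions. The interval for 0 of 10 reaches 27.8%. The input was not equally low at all sites. The local background of the p53 call, taken from the input, was 23 fragments at Myo16 and 11 at Tubgcp3 and Muc13. Its median over all p53 regions was 5.25.

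Of the 10 genes, 3 held further, weaker p53 regions within the gene or 10000 bp of it. Adamts2 and Myo16 had 4 more each and Rbms3 had 5 more, while the other 7 genes had none. These 13 regions had pileups of 25.66 to 350.45 with a median of 49.85, far under those of the main sites. The highest were in Rbms3 (350.45, fold enrichment 61.8, 319044 bp from the main summit), Myo16 (299.86, fold 52.9, 14718 bp away) and Adamts2 (206.75, fold 23.1, 76275 bp away). In Adamts2, another pair of weak regions stood 1985 and 3879 bp from the main summit. An untagged region overlapped 1 of the 13, in Rbms3, where the p53 pileup was 41.06 and the untagged pileup 34.11.

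Genes long known as p53 targets gave much lower values in the same list. Of 24 such genes, 14 had a p53 region in the gene or within 5000 bp, against 20.6% of protein-coding genes. Their pileups ran from 46.19 to 512.47 with a median of 181, so that each was below the 855.59 of Alkbh3. The genes described here were selected on a very high pileup, and the target list was not. Lower pileups in the target list therefore follow largely from that selection and are given as a description. Cdkn1a, the gene of the cell cycle inhibitor that carries out p53-dependent arrest, was highest at 512.47 with a fold enrichment of 64.2. It was followed by Zmat3, an RNA-binding protein gene, at 391.5, by Bbc3, which promotes apoptosis, at 389.3, by Trp53inp1, a stress-induced regulator, at 386.37, and by the kinase gene Plk2 at 211.88. No region was listed within 5000 bp of Sesn1, Gadd45a, Perp, Phlda3, Ppm1d, Rrm2b, Ddb2, Apaf1, Tigar or Tnfrsf10b. With a window of 10000 bp, 16 of the 24 target genes had a region, so some of these genes had one at that distance. H3K27ac was listed at all 14 target regions after doxorubicin and at 13 after vehicle, and H3K9me3 at 2 in each treatment, those of Cdkn1a and Trp53inp1. Over all p53 regions H3K27ac was listed at 72.3% after doxorubicin and 42.9% after vehicle, and H3K9me3 at 25.2% and 20%. No untagged or input region overlapped any of the 14, against 3.7% and 1.76% of all p53 regions.

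H3K27ac was listed at the p53 region of all 10 genes after doxorubicin and of 8 after vehicle. Over the other strong p53 regions the shares were 100% after doxorubicin and 88.1% after vehicle, and over all p53 regions 72.3% and 42.9%. The 10 genes thus stood close to other regions of like strength, with intervals of 72.2% to 100% after doxorubicin and 49% to 94.3% after vehicle. Cyp4f39 and Rgcc were listed after doxorubicin only, 2 of 10 against 11.9% of the other strong and 30% of all p53 regions. None was listed after vehicle only, against 0% of the other strong and 0.594% of all p53 regions. With regions limited to a depth-scaled pileup of 1 per 1000000 fragments or more, the vehicle count was 5 and the count after doxorubicin only was 5, since Rbms3, Alkbh3 and Muc13 were below that limit after vehicle.

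Histone pileups in this paragraph and the next are given per 1000000 fragments of each list. The treatments were not scaled to each other in any other way, so the values of doxorubicin and vehicle are set side by side. Myo16 had the highest H3K27ac at its p53 region, 10.5 fragments per 1000000 after doxorubicin and 2.86 after vehicle. Tubgcp3 had 7.92 after doxorubicin and 2.66 after vehicle. Adamts2 had 6.34 after doxorubicin and 2.08 after vehicle. These 3 genes also had the 3 highest p53 pileups, but the orders differed below them. Rbms3, next in p53 pileup at 2604.89, had less H3K27ac after doxorubicin than Alkbh3, lowest in p53 pileup at 855.59. Cyp4f39, with 4.11 after doxorubicin, had no vehicle region nearer than 1713 bp. Muc13 had 3.46 after doxorubicin and 0.969 after vehicle. Zmynd8 had 3.40 after doxorubicin and 1.16 after vehicle. The values of these 3 genes lay close together after doxorubicin. Alkbh3 had 2.58 after doxorubicin and 0.920 after vehicle. Syt11 had 2.52 after doxorubicin and 1.36 after vehicle. Rbms3 had 2.05 after doxorubicin and 0.533 after vehicle. Rgcc was lowest after doxorubicin at 1.70, and its nearest vehicle region was 3415 bp away.

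The doxorubicin value was above the vehicle value at all 8 genes listed in both treatments, against 93.3% of the other strong p53 regions and 91.7% of all p53 regions. The ratio of doxorubicin to vehicle ran from 1.86 in Syt11 to 3.86 in Rbms3, with a median of 3.01. The median ratio was 2.50 at the other strong p53 regions and 1.99 at all p53 regions. Histone regions without p53 gave a lower median ratio. Within the same 10 genes and the 10000 bp around them, 46 of 66 vehicle regions had a higher doxorubicin value, with a median ratio of 1.31. Over the genome such regions had a median ratio of 1.11, with 60.2% higher after doxorubicin. These shares start from vehicle regions that overlap a doxorubicin region, and those at p53 sites start from the p53 region.

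**Figure D2:**
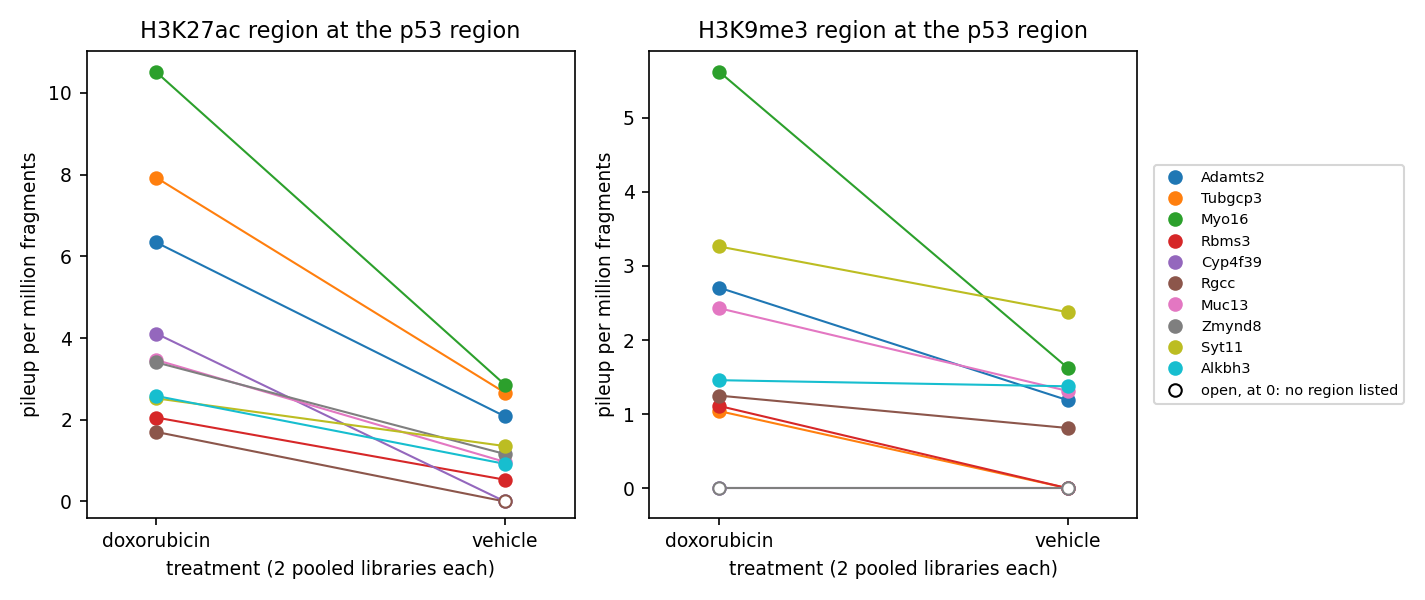
Pileup per 1000000 fragments of the H3K27ac (left) and H3K9me3 (right) region at the p53 region of each gene, after doxorubicin and after vehicle, 1 pooled list each. Open circles at 0 stand for genes with no listed region. H3K27ac is higher after doxorubicin at the 8 genes listed in both treatments, and Myo16 is highest for both marks after doxorubicin at 10.5 and 5.62.

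Within a single list, the p53 site could be set against the start of the same gene without any scaling between treatments. The pileups here are as listed, unless said to be scaled, and compare places within a list. After doxorubicin the H3K27ac region at the p53 site was the strongest of the gene and its surroundings at 7 of 10 genes. By the same rule this held for 65.4% of 52 other protein-coding genes with a strong p53 region and for 55.1% of all 3758 others with a p53 region and the mark at it. After vehicle it held at 4 of the 8 genes with a region there, against 47.8% of 46 and 38.8% of 2566 other genes. The shares of the 10 genes were thus near those of other genes with strong p53 regions. Alkbh3 had a pileup of 44 at the p53 site and 24 at its start after doxorubicin, against 19 at the p53 site and 36 at its start after vehicle. Syt11 had 43 at the p53 site and 28 at the 5′ end of the gene after doxorubicin, against 28 at the p53 site and 46 at the 5′ end after vehicle. In both genes the order of the 2 places was thus opposite in the 2 lists. In Tubgcp3 the p53 site was the higher place in both lists, with a pileup of 135 after doxorubicin and 55 after vehicle. Zmynd8 was unlike these, since its p53 site ranked 6th of 33 regions after doxorubicin and 11th of 36 after vehicle. The strongest H3K27ac of that gene had pileups of 128 after doxorubicin and 160 after vehicle. Scaled to the depth of each list, in the unit given earlier, these were 7.51 after doxorubicin and 7.75 after vehicle. The summits lay 20363 bp upstream of the p53 summit after doxorubicin and 21521 bp after vehicle. At Rgcc the strongest region lay downstream of the gene in both lists but not at the same place. The strongest after doxorubicin, 27261 bp from the p53 summit, had a pileup of 57, and the vehicle region at that place had 59. Scaled to the depth of each list, the order was opposite, at 3.35 after doxorubicin and 2.86 after vehicle. The strongest after vehicle lay 19037 bp from the p53 summit, and the pileups at that place were 23 after doxorubicin and 80 after vehicle. Scaled in the same way, these were 1.35 after doxorubicin and 3.87 after vehicle.

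The H3K27ac regions at the p53 sites also differed in length. In Adamts2 the region was 4894 bp after doxorubicin and 1453 bp after vehicle. In Tubgcp3 it was 5785 bp after doxorubicin and 1792 bp after vehicle. Zmynd8 had the longest of the 10 in both lists, at 6029 bp after doxorubicin and 3857 bp after vehicle. In Myo16 it was short in both lists, at 810 bp after doxorubicin and 510 bp after vehicle. Within 10000 bp of the p53 summit, H3K27ac covered a median of 4556 bp after doxorubicin and 2022 bp after vehicle over the 10 genes. Zmynd8 was covered widely in both lists, over 10526 bp after doxorubicin and 9482 bp after vehicle. H3K27ac covered more after doxorubicin at 7 of the 10, against 83.2% of the other strong and 69.8% of all p53 regions.

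**Figure D3:**
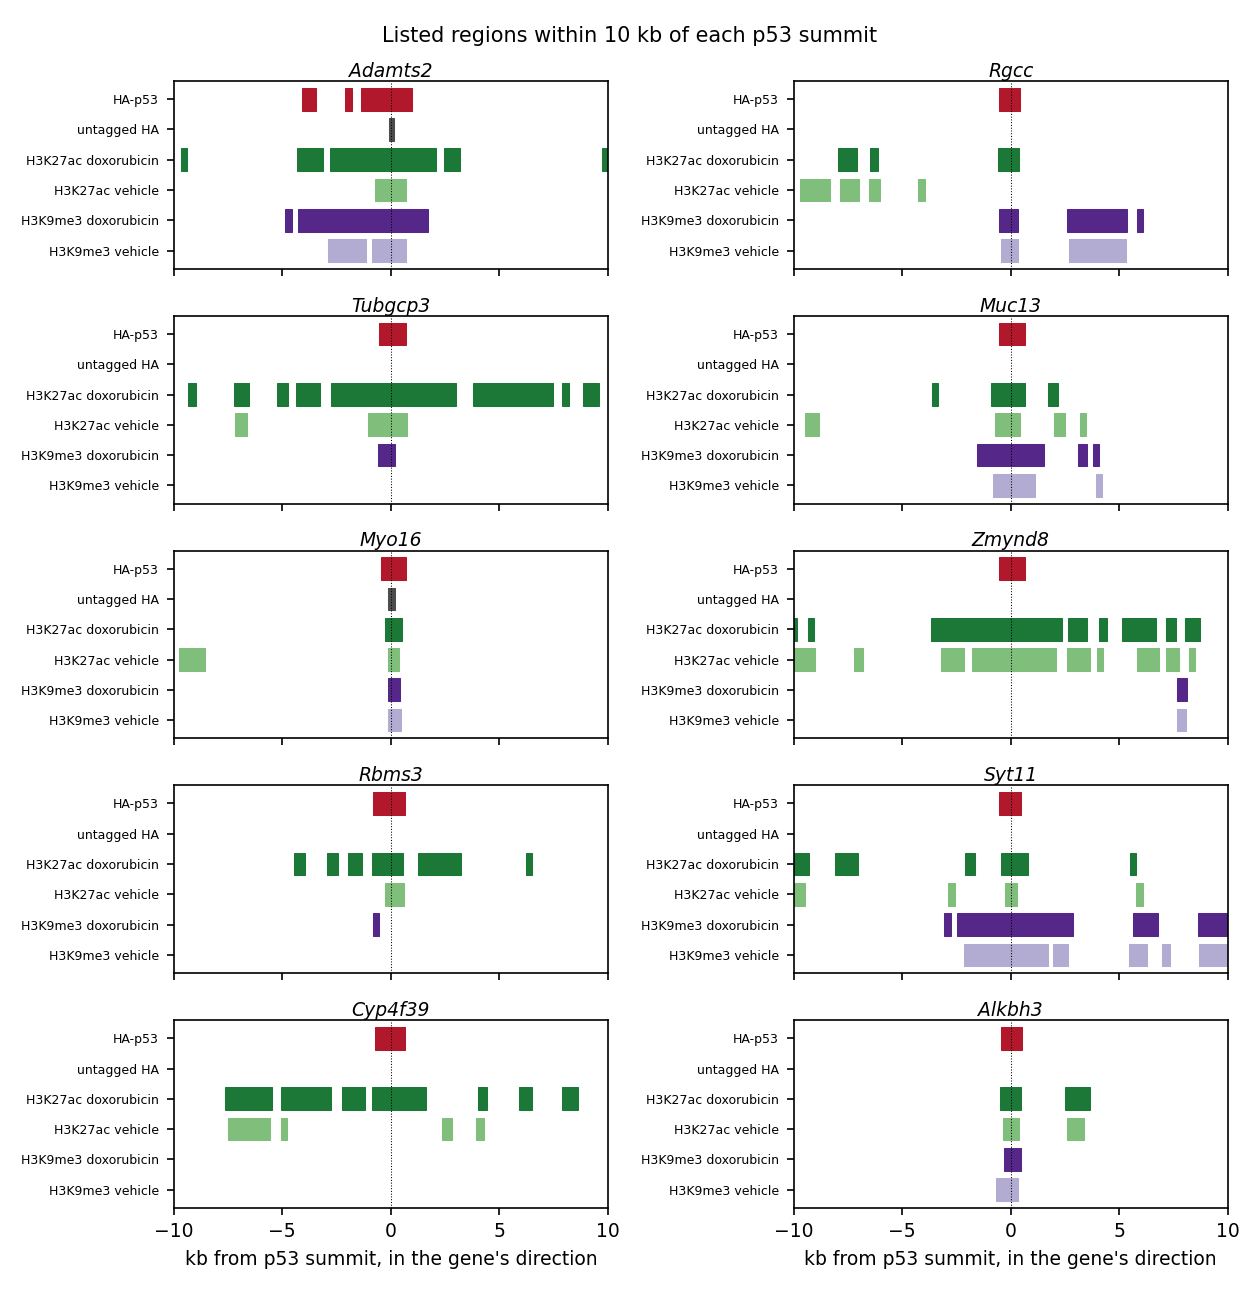
Regions listed within 10 kb of the p53 summit of each gene, drawn in the direction of the gene with the summit at 0, for p53, untagged HA and both marks after doxorubicin and after vehicle; the input list had none. Adamts2, Tubgcp3 and Cyp4f39 have long H3K27ac stretches after doxorubicin, Zmynd8 has them in both treatments, and the marks at the Myo16 site are narrower than the p53 region.

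Over the whole gene and 10000 bp around it, 7 of the 10 genes had more H3K27ac regions after doxorubicin, against 63.3% of 17345 protein-coding genes with the mark. In Tubgcp3 there were 20 after doxorubicin and 6 after vehicle. In Adamts2 there were 15 after doxorubicin and 3 after vehicle, in Cyp4f39 13 and 5, in Rbms3 19 and 10, and in Myo16 9 and 4. Zmynd8, with 33 after doxorubicin and 36 after vehicle, and Alkbh3, with 4 and 5, had more after vehicle, against 18% of genes, and Rgcc had 6 in each. The doxorubicin list was longer, with 112259 regions against 82177. With equal numbers of top regions taken from both lists, 4 of the 10 genes had more after doxorubicin, against 42.7% of genes. The count was 8 with a −log10 q of at least 5, against 51.2% of genes, and 8 with at least 1 fragment per 1000000, against 51.1%.

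The p53 regions of 8 of the 10 genes carried an H3K9me3 region after doxorubicin and those of 6 after vehicle. The other strong p53 regions gave 81.2% after doxorubicin and 68.3% after vehicle, and all p53 regions 25.2% and 20%. Cyp4f39 and Zmynd8 had none in either treatment, with the nearest regions 37410 and 7005 bp away after doxorubicin. Tubgcp3 and Rbms3 were listed after doxorubicin only, 2 of 10 against 12.9% of the other strong and 5.82% of all p53 regions. The Rbms3 region was 252 bp long at the edge of the p53 region and did not hold the summit, so that 1 gene remained where the summit had to lie inside. No gene was listed after vehicle only, against 0% of the other strong and 0.665% of all p53 regions.

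Both marks were listed together at 8 of the 10 p53 regions after doxorubicin, against 81.2% of the other strong and 18.9% of all p53 regions. After vehicle the number was 5, against 65.3% of the other strong and 9.92% of all p53 regions, and 3 with at least 1 fragment per 1000000. Whether both marks lay on the same molecules cannot be told from these lists.

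Myo16 again had the highest H3K9me3 pileup, 5.62 fragments per 1000000 after doxorubicin and 1.63 after vehicle. Syt11 had 3.26 after doxorubicin and 2.38 after vehicle. Adamts2 had 2.71 after doxorubicin and 1.19 after vehicle. The order of these genes differed between treatments, with Syt11 highest after vehicle. Muc13 had 2.43 after doxorubicin and 1.31 after vehicle. Alkbh3 had 1.46 after doxorubicin and 1.38 after vehicle, the smallest gap of all. Rgcc had 1.25 after doxorubicin and 0.813 after vehicle. The 2 genes listed after doxorubicin only were low, with 1.04 in Tubgcp3 and 1.11 in Rbms3. The doxorubicin value was the higher at all 6 genes with both, against 91.3% of the other strong and 89% of all p53 regions. The median ratio was 1.69 at these genes, 1.55 at the other strong and 1.40 at all p53 regions. It was 1.18 at 21 regions without p53 in the same genes and the 10000 bp around them, 17 of them higher after doxorubicin. It was 1.30 at such regions over the genome, where 79.6% were higher after doxorubicin, so most H3K9me3 regions leaned the same way.

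The shape of the H3K9me3 regions varied among the genes. In Adamts2 the region was 6003 bp after doxorubicin, while 2 regions stood there after vehicle, the stronger of 1580 bp. In Syt11 it was 5364 bp after doxorubicin and 3859 bp after vehicle. In Myo16 it was 578 bp after doxorubicin and 614 bp after vehicle. Within 10000 bp of the p53 summit, H3K9me3 covered a median of 774 bp after doxorubicin and 807 bp after vehicle over the 10 genes. Taken gene by gene it covered more after doxorubicin at 7 of the 10, against 77.2% of the other strong and 37.1% of all p53 regions. Every mark at Myo16 had its summit next to that of p53. The H3K27ac summits were 6 bp away after doxorubicin and 13 bp after vehicle, and the H3K9me3 summits 10 and 8 bp. The untagged summit at the same place was 1 bp away. The part of that background in the marks at Myo16 was not tested. Over the 10 genes, the H3K27ac summit lay within 100 bp of the p53 summit at 5 of 10 after doxorubicin and 3 of 8 after vehicle, against 29.4% and 28% of all p53 regions with the mark. The H3K9me3 summit did so at 5 of 8 after doxorubicin and 4 of 6 after vehicle, against 29.9% and 28.9%. These distances were not counted for the other strong p53 regions, so close summits are not shown to be particular to the 10 genes.

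At Rgcc the mark was not only at the p53 site. A separate H3K9me3 region of 2734 bp after doxorubicin and 2640 bp after vehicle covered the gene's start, with a pileup as listed of 34 in both. Scaled to the depth of each list, that pileup was 2.36 after doxorubicin and 2.13 after vehicle. The region held the Rgcc sequence printed above. Of the 16 start-site windows, H3K9me3 overlapped 3 after doxorubicin, those of Rgcc and Muc13, against 2.19% of all windows, and 1 after vehicle, that of Rgcc, against 1.67%. The Muc13 windows were both overlapped by the same region, from 33794033 to 33794433. Its pileup as listed was 8, where the smallest in that list was 7. It fell under the stricter limits on q and on depth-scaled pileup that were tried as other settings.

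Over the whole gene and its surroundings, 8 of the 10 genes had more H3K9me3 regions after doxorubicin, against 48.2% of 11019 protein-coding genes with the mark. The numbers were small. Adamts2 had 9 after doxorubicin and 2 after vehicle, Rbms3 17 and 12, Myo16 7 and 4, and Tubgcp3 3 and 0. Syt11 alone had more after vehicle, with 5 after doxorubicin and 6 after vehicle, against 17.5% of genes. The count of 8 fell to 4 with a −log10 q of at least 5, against 48.2% of genes, to 5 with equal numbers of top regions, against 26.8%, and to 4 with at least 1 fragment per 1000000, against 47.5%.

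**Figure D4:**
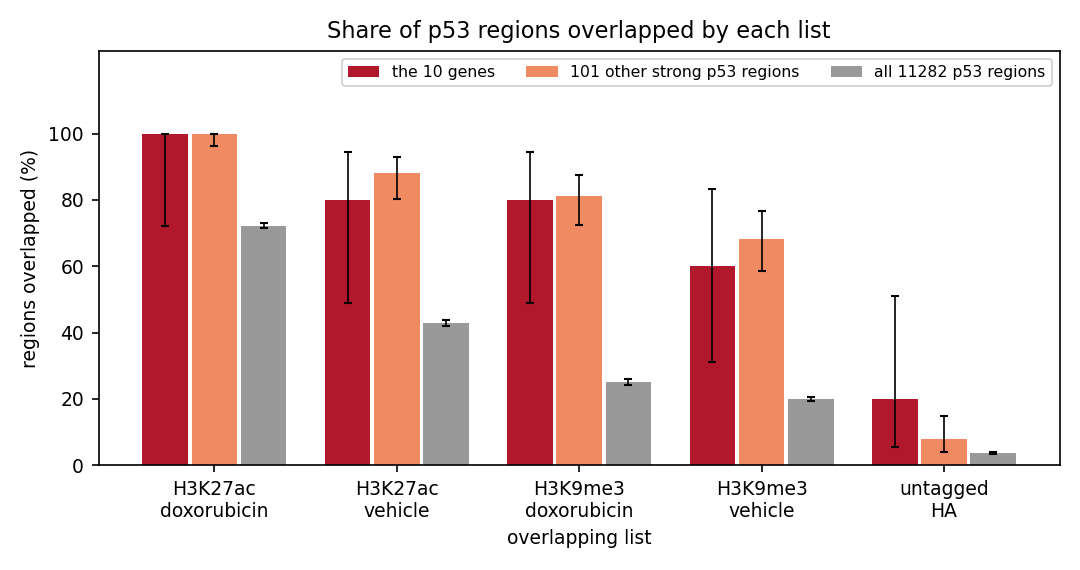
Percentage of p53 regions overlapped by each list for the 10 genes, the 101 other strong p53 regions and all 11282 p53 regions, with 95% Wilson intervals for counting error. The 10 genes and the other strong regions have overlapping intervals in every list shown. The intervals of the 10 genes, which were chosen on p53 pileup, are wide, so this overlap does not show likeness. The percentages of both sets lie above those of all p53 regions for H3K27ac, H3K9me3 and also untagged HA (20% and 7.92% against 3.7%).

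Of the 13 weaker p53 regions of Adamts2, Myo16 and Rbms3, H3K27ac was listed at 11 after doxorubicin, against 72.3% of all p53 regions, and at 2 after vehicle, against 42.9%. It was listed after doxorubicin only at 9 of the 13, against 30% of all p53 regions. The 2 with H3K27ac after vehicle were the second site of Myo16 and the Rbms3 region that overlapped an untagged region. H3K9me3 was listed at 4 of the 13 after doxorubicin, against 25.2% of all p53 regions, and at 2 after vehicle, against 20%. In Adamts2 the 6003 bp H3K9me3 region at the main site after doxorubicin also overlapped the weak regions 1985 and 3879 bp away. The weak region 1985 bp away also shared its H3K27ac after doxorubicin and its H3K9me3 after vehicle with the main site. These listed regions were thus not separate from those at the main site. The second Myo16 site had an H3K27ac pileup of 2.70 per 1000000 after doxorubicin and 1.07 after vehicle.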

How the data were processed

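The data are 7 lists of ChIP-seq regions, each called on 2 pooled libraries. Per the submitters' processing notes, alignment used Bowtie2 2.2.6, and regions were called by the authors with MACS2 2.2.5 at a q cutoff of 5.00e-02 on mm10, keeping 1 fragment per position, per the file headers. Pileup, the deposited signal, counts fragments over a summit, and both HA lists were scaled to the input's depth. The deposited q values are −log10 values. The deposited fold enrichment is (pileup + 1) over (background + 1). The p53 background was local and the untagged one genome-wide, both from the input, and the histone and input lists had no control, per the file headers. Deposited positions and lengths are in bp.

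An interval with several summits was taken as 1 region with the pileup and fold of its highest. Regions of different lists counted as shared when 1 bp or more was in common, and the counting was checked against bedtools 2.31.1 on simulated regions. Where several regions of a list overlapped a p53 region, the one of highest pileup stands for them. Histone pileups were expressed per 1000000 fragments of the list where stated, and are as listed elsewhere. Genes, strands and start sites came from RefSeq tables of GRCm38.p6, the assembly of mm10, where all 10 genes matched. Strand was checked on 1668 overlapping windows of opposite strands, of which 1668 were reverse complements. Python 3.11.15, numpy 2.4.6, pandas 2.3.3 and matplotlib 3.10.9 were used.

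The 10 genes, the p53 target list and the marker lists were chosen with earlier results of these data known. Named genes are the 10, the 5 targets of highest pileup and those without a region, the genes just above and below the weakest of the 10, and any gene overlapping a summit. The second p53 regions and the start sites singled out were chosen after their values were seen.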

Additional observations from a re-analysis of the deposited data

How the results depend on the processing

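The settings tried were a −log10 q of at least 5, another overlap rule (at least a 0.5 share of the p53 region, the p53 summit inside, or within 1000 bp), the p53 region of highest fold, equal numbers of top regions, at least 1 fragment per 1000000 fragments, and the genes with an untagged region left out. The region of highest fold was that of highest pileup at all 10 genes, so that setting changed nothing. Equal numbers and the pileup limit were applied to the histone lists only, and counts they cannot touch were left out. Of 77 other recomputed counts for the 10 genes, 69 stayed within 1.5 times. Untagged overlaps went to 0 of 10 when a 0.5 share had to be covered, which those regions were too short to do. They stayed at 2 with the p53 summit inside, and went to 0 by construction with those genes left out. With at least 1 fragment per 1000000, vehicle H3K27ac gave 5, H3K27ac after doxorubicin only 5, and both marks after vehicle 3. Both marks after vehicle also gave 3 with the untagged genes left out. That fall was by construction, since Adamts2 and Myo16 each carried both marks after vehicle. H3K9me3 after doxorubicin only gave 1 under the 0.5 share and 1 with the summit inside. Over all p53 regions 58 of 65 counts stayed. With at least 1 fragment per 1000000, vehicle H3K27ac went to 2494, H3K27ac after vehicle only to 33, both marks after doxorubicin to 1185 and after vehicle to 434. Both marks after vehicle gave 692 with a −log10 q of at least 5. With equal numbers of top regions, H3K9me3 after doxorubicin only gave 425 and after vehicle only 127. For the number of genes with more regions after doxorubicin, chosen after seeing the data, H3K27ac gave 4 with equal numbers, and H3K9me3 gave 4 with the stricter q, 5 with equal numbers and 4 with at least 1 fragment per 1000000. Equal numbers shortened the doxorubicin lists alone, to the 82177 (H3K27ac) and 60836 (H3K9me3) regions of the vehicle lists, and the stricter q and the pileup limit shortened all 4 histone lists. The cause of these shifts was not tested further. The 23 p53 regions in the genes and the 14 target genes stayed within 1.5 times in 3 and 2 settings.

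No paired analysis was possible because the 2 libraries of a group had been merged before calling, and for the same reason leaving out a replicate was not run. Depth limits what is listed: the smallest pileup was 8 for H3K27ac after doxorubicin and 9 after vehicle, so that a missing region is no measure of a missing mark.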
